A study of Mus musculus with 6 samples.

Results

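The AMPA receptor genes described here are 10 of the 55471 genes in a count table of mouse hippocampus, taken by symbol after the gene identifiers were matched to names. They are the pore subunits Gria1, Gria2, Gria3 and Gria4, the transmembrane AMPA receptor regulatory proteins (TARPs) Cacng2, Cacng3 and Cacng8, the cornichon homologue Cnih2, and the Shisa-family proteins Shisa6 and Shisa9. RNA-seq was performed on total hippocampal RNA from 6 C57BL/6 mice aged 3-6 months, 1 mouse per library, all of which received tamoxifen (20 mg/mL in corn oil) intragastrically 5 times, every other day. The 3 p300-ifKO mice carried floxed Ep300 and Camk2a-creERT2, a driver active in excitatory neurons of the forebrain, so that p300, a lysine acetyltransferase and transcriptional coactivator, was removed from those neurons in adulthood. The 3 controls were littermates, described as creERT2-negative in the treatment notes, although the description of each control library names Camk2a_creERT2. Counts of Esr1, part of whose sequence is in the creERT2 transgene, were far lower in all 3 controls than in any p300-ifKO mouse. Interneurons and glia in the dissected tissue keep p300. The comparison asks how the hippocampal transcriptome responds to loss of p300 in mature excitatory neurons.

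AMPA receptors carry most of the fast excitatory transmission in the brain. Each channel is a tetramer of GluA subunits encoded by the Gria genes, and auxiliary proteins bound around the pore set its traffic to the synapse and its gating. TARPs anchor receptors to the postsynaptic scaffold and slow their closing, CNIH-2 promotes export from the endoplasmic reticulum and slows deactivation, and the Shisa proteins shape desensitization and recovery. In the hippocampus, receptors of principal cells are known to be built largely from GluA1 and GluA2, and Cacng8 encodes the TARP for which this region is known.

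The 4 pore subunits are close relatives, which matters for counting 50-base reads. The stretch below, from the annotated GENCODE M21 transcripts, encodes part of the re-entrant pore loop, and the capitals mark the codon of the glutamine/arginine (Q/R) site. It is shown because this codon in Gria2 RNA is converted by the editing enzyme encoded by Adarb1, which makes channels containing GluA2 nearly impermeable to calcium.
Gria1: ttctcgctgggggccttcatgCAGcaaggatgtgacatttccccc
Gria2: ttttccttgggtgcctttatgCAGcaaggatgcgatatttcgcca
Gria3: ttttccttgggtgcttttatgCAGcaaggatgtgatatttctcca
Gria4: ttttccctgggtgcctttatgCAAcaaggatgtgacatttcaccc
The stretch lies in coding exons, at bases 2001 to 2045, 2249 to 2293, 1896 to 1940 and 2280 to 2324 of the annotated transcripts of Gria1, Gria2, Gria3 and Gria4. The genomic codon is CAG in Gria1, Gria2 and Gria3 and CAA in Gria4. Counts per gene hold no base calls, so editing at this codon was not measured. The longest run of bases shared by a pair of pore subunits was 59 bases for Gria3 and Gria4, a simple repeat of c and t, 56 bases for Gria2 and Gria3, 55 bases for Gria2 and Gria4 and 40 bases for Gria1 and Gria2. It was 35 bases for Gria1 with either Gria3 or Gria4. The run of Gria2 and Gria3 is shown because a read lying inside it cannot be assigned to either gene.
Gria2 and Gria3: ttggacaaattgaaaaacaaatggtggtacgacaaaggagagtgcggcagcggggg
Of all 50-base windows in the annotated transcripts, 0.733% of those of Gria2, 0.614% of those of Gria3 and 0.335% of those of Gria4 occurred also in another gene. None of those of Gria1 did. The share was 1.83% for Cacng8 and 5.86% for Cacng2, which overlaps A730060N03Rik, annotated on the opposite strand, by 323 bases. Whether strand was used in counting is not given in the sources used here, so reads of Cacng2 and its antisense neighbour could not be told apart.

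In GRCm38, Gria1 lies at chr11:57011387-57330244, Gria2 at chr3:80681450-80802835, Gria3 at chrX:41400854-41678601 and Gria4 at chr9:4417896-4796234. Cacng2 lies at chr15:77991748-78120028, Cacng3 at chr7:122670492-122769393, Cacng8 at chr7:3390683-3415648, Cnih2 at chr19:5092868-5098521, Shisa6 at chr11:66211725-66525964 and Shisa9 at chr16:11984113-12270902. Counts covered the annotated exons, whose summed length ran from 1.37 kb for Cnih2 to 15.5 kb for Gria2.

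Libraries held 23151568 to 28433823 exonic counts, and all 10 genes were well covered, with at least 1147 counts in any library. Ep300 had normalized counts of 1545, 1474 and 2334 in the controls and 478, 1350.3 and 912 in p300-ifKO mice, lower in all 3 p300-ifKO libraries (log2 fold change -0.97, SE 0.33, DESeq2 adjusted p = 0.991). Ep300 was called lower by DESeq2 without p300-ifKO replicate 2 (-1.36, adjusted p = 0.000356) and with 1 surrogate variable in the fit (-0.48, adjusted p = 0.00127). It was not called in the other fits. Its log2 fold change was -0.83 with length and GC offsets (DESeq2 adjusted p = 0.907) and -0.66 without p300-ifKO replicate 1. Esr1, part of whose sequence is in the creERT2 transgene, ran from 87.2 to 109 in controls and from 2416 to 4217 in p300-ifKO mice. It and Arsi, which lies next to Camk2a, were the 2 genes called among 32773 tested, or 0.0061% of them by DESeq2 at an adjusted p under 0.05. The edgeR quasi-likelihood test called 2 of 17131, or 0.0117%. Exonic length went with the library differences: across 17070 genes with a mean normalized count of at least 10, Spearman's rho between exonic length and a library's deviation from the 6-library mean was 0.18, 0.16 and 0.41 in the controls and -0.50, 0.42 and -0.28 in p300-ifKO replicates 1, 2 and 3.

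No AMPA receptor gene passed the threshold between genotypes. Of the 10 genes, 0 were called by DESeq2, 0 by the edgeR quasi-likelihood test and 0 had an unadjusted p under 0.05 in DESeq2, against 1.32% of all genes tested at that unadjusted level. The fitted log2 fold change was negative for 7 and positive for 3, with a median of -0.09 beside -0.05 over all genes tested and -0.0051 over the 17070 genes with a mean normalized count of at least 10. In a DESeq2 fit limited to genes with at least 10 counts in 3 libraries, 387 of 17302 had an unadjusted p under 0.05. Of the 10 genes, 0 did. Normalized counts are raw counts corrected for library size with DESeq2 size factors. In bulk tissue, fewer cells of a type and less RNA per cell cannot be told apart.

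**Figure D1:**
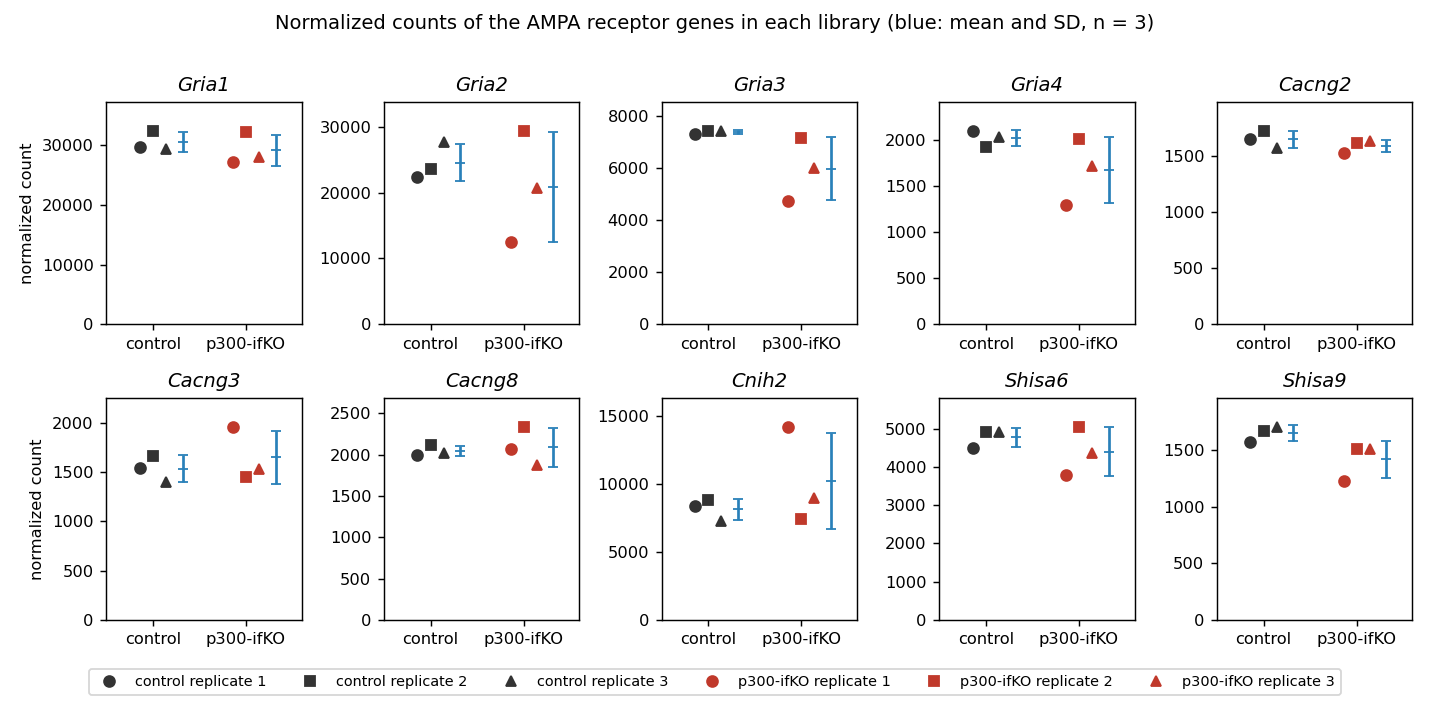
Normalized counts of the 10 AMPA receptor genes (y axes, from 0) in 3 control and 3 p300-ifKO libraries. Points are libraries with their replicate numbers as shapes, and blue bars give the mean and SD of each group. Replicate 1 of p300-ifKO was lowest for Gria2, at 12579, and highest for Cnih2, at 14191.

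Among the pore subunits, Gria1, which encodes GluA1, had the most counts. It measured 29757, 32376 and 29339 in the controls and 27152, 32141 and 28062 in p300-ifKO mice. Control and p300-ifKO values overlapped, with a log2 fold change of -0.07 (95% interval -0.30 to 0.17, DESeq2 adjusted p = 0.991). Gria2, which encodes the subunit that limits calcium entry, measured 22337, 23570.2 and 27759 in the controls and 12579, 29384 and 20729.6 in p300-ifKO mice. Both the highest and the lowest library were p300-ifKO, and the coefficient of variation was 40.2% in that group against 11.6% in controls. Its log2 fold change was -0.23 with a 95% interval from -0.76 to 0.30, so a fold between 0.589 and 1.23 lay inside the interval.

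Gria3 was the pore subunit with the tightest controls. Its normalized counts were 7283, 7404 and 7400.4 in the controls and 4726, 7143 and 5992 in p300-ifKO mice. All 3 p300-ifKO libraries lay below all 3 controls, the nearest by a small margin, and the log2 fold change was -0.31 (95% interval -0.64 to 0.03, unadjusted p = 0.0706, DESeq2 adjusted p = 0.991). Gria4, which encodes a subunit known from interneurons and the immature brain, measured 2097, 1929 and 2032 in the controls and 1293, 2009.5 and 1716 in p300-ifKO mice. Replicate 2 of p300-ifKO lay among the controls, and the log2 fold change was -0.27 (95% interval -0.63 to 0.08, DESeq2 adjusted p = 0.991).

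For the TARPs, no difference was detected at this number of mice. Cacng2, which encodes stargazin, measured 1649, 1719 and 1566 in the controls and 1525, 1611 and 1627 in p300-ifKO mice, with a log2 fold change of -0.05 (95% interval -0.27 to 0.17). Cacng3 measured 1549, 1666 and 1398 in the controls and 1964, 1457 and 1536 in p300-ifKO mice, and its log2 fold change was 0.10 (95% interval -0.22 to 0.42). Cacng8 measured 1999.5, 2116 and 2025 in the controls and 2065, 2340.0 and 1871 in p300-ifKO mice, with a log2 fold change of 0.03 (95% interval -0.23 to 0.29). Values of the 2 groups overlapped for all 3 TARPs, and each had a DESeq2 adjusted p of 0.991.

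Cnih2 had the highest positive fold change of the 10 genes. Its normalized counts were 8328, 8793 and 7259 in the controls and 14191, 7441 and 8967 in p300-ifKO mice. Replicate 1 stood far above the rest while replicate 2 lay inside the range of the controls, and the log2 fold change was 0.33 (95% interval -0.13 to 0.79, DESeq2 adjusted p = 0.991). Shisa6 measured 4500.2, 4922 and 4926 in the controls and 3783, 5059.9 and 4360.0 in p300-ifKO mice, with overlapping groups and a log2 fold change of -0.12 (95% interval -0.41 to 0.17). Shisa9, also known as CKAMP44, measured 1576, 1673 and 1709 in the controls and 1232, 1512 and 1513 in p300-ifKO mice. Its groups did not overlap, and the log2 fold change was -0.22 (95% interval -0.49 to 0.05, unadjusted p = 0.108, DESeq2 adjusted p = 0.991). Groups without overlap were found for 2 of the 10 genes, Gria3 and Shisa9. They were found for 6.64% of all genes tested and for 7.46% of the 17070 genes with a mean normalized count of at least 10.

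The spread was wider among p300-ifKO mice than among controls for 9 of the 10 genes, Cacng2 being the exception, and for 73.3% of the 17070 genes. Replicate 1 of p300-ifKO gave the highest or the lowest value of the 6 libraries for 9 of the 10 genes, Cacng8 being the exception, and for 74.8% of the 17070 genes. Its deviation from the mean of the gene over the 6 libraries ran from -0.80 on the log2 scale for Gria2, the gene with the longest exonic sequence, to 0.67 for Cnih2, the one with the shortest. Replicate 2 of p300-ifKO deviated the other way, by 0.42 for Gria2 and -0.26 for Cnih2. Over the 10 genes, Spearman's rho between log2 fold change and exonic length was -0.84, and over the 17070 genes it was -0.44. These are correlations across genes of the same 6 libraries, and genes are not independent replicates.

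**Figure D2:**
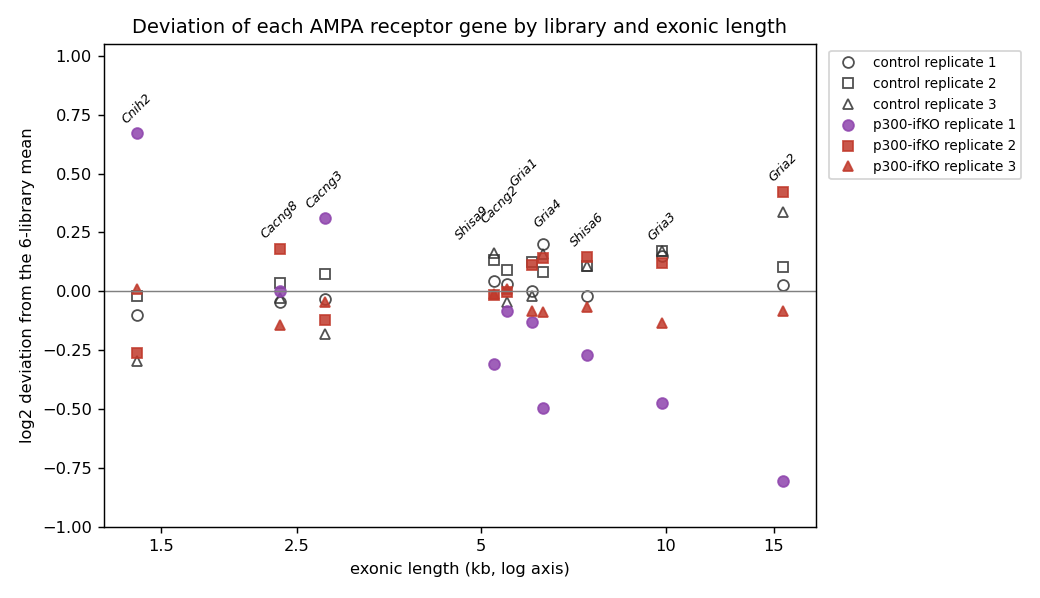
Log2 deviation of each AMPA receptor gene from its mean over 6 libraries (y axis) against exonic length in kb (x axis, log scale), 1 point per gene and library. Points of p300-ifKO replicate 1 run from 0.67 at Cnih2 down to -0.80 at Gria2.

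When the fit included smooth offsets for exonic length and GC content in each library, the log2 fold changes of the 10 genes ran from -0.16 to 0.06. Gria2 then stood at 0.04 (95% interval -0.16 to 0.24), Cnih2 at 0.06 (95% interval -0.18 to 0.31), Gria3 at -0.11 (95% interval -0.28 to 0.07) and Shisa9 at -0.15 (95% interval -0.34 to 0.04). Without p300-ifKO replicate 1, the range was -0.17 to 0.04. Without p300-ifKO replicate 2, it was -0.56 to 0.51, and DESeq2 called 2 of the 10 genes, Gria2 (log2 fold change -0.56, adjusted p = 0.048) and Gria3 (log2 fold change -0.46, adjusted p = 0.0285), among 938 of 32019 genes, or 2.93%. Gria4 and Cnih2 had DESeq2 adjusted p-values of 0.0602 and 0.0558 in that fit. With replicate 2 left out, the p300-ifKO group was replicates 1 and 3, whose deviations fell with exonic length. No fit joined leaving out replicate 2 with the offsets, so the part of length in these calls was not tested.

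**Figure D3:**
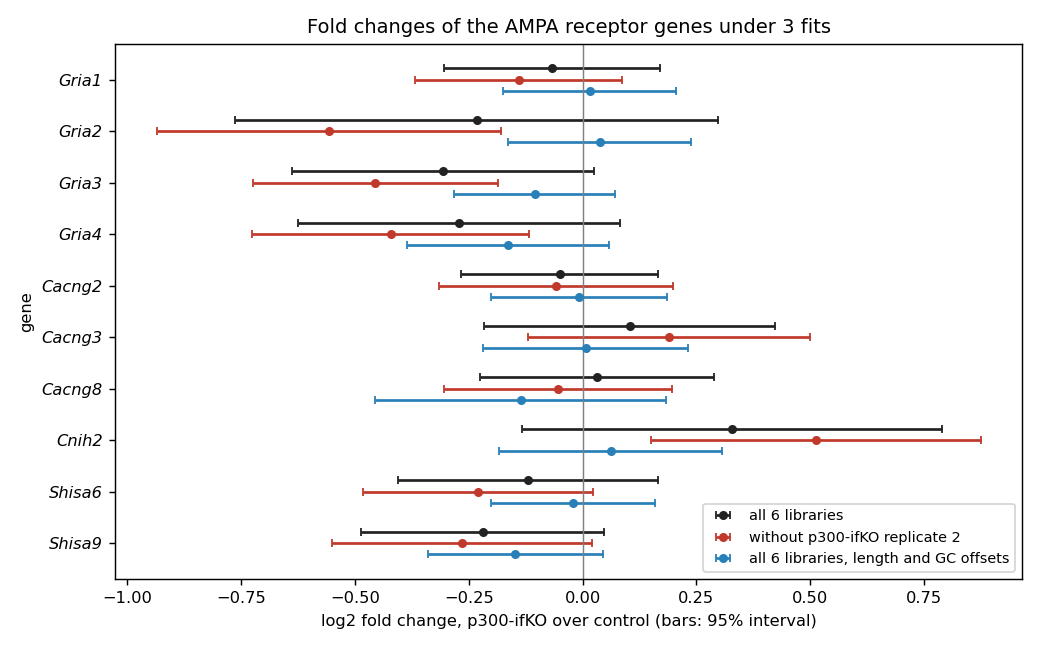
Log2 fold change of p300-ifKO over control (x axis, points, with 95% intervals as bars) for the 10 AMPA receptor genes under 3 DESeq2 fits. With all 6 libraries, every interval includes 0, and with length and GC offsets all points lie between -0.16 and 0.06.

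Levels were compared between genes as normalized counts per kb of exonic length, averaged over the 6 libraries. Cnih2 stood highest at 6693 ± 1869 (SD, n = 6), followed by Gria1 at 4932 ± 350 and Gria2 at 1462 ± 383. Cnih2 lay above Gria1 in all 6 libraries, by 1.02 to 2.31 times, but their ranges overlapped. Gria1 and Gria2 were separated in every library, by 2.72 to 5.55 times. Cacng8 followed at 883 ± 66.5, the highest of the 3 TARPs among the 10 genes, and lay above Gria3, at 675 ± 110, in all 6 libraries. Gria3, Shisa6 at 616 ± 64.6 and Cacng3 at 574 ± 72.9 overlapped in range. Cacng2, Shisa9 and Gria4 shared the lowest place, at 293 ± 12.2, 293 ± 32.4 and 293 ± 47.8, and did not differ beyond their spread. This order depends on the exonic lengths, which sum all annotated exons of a gene.

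As a share of the summed pore subunits per kb, Gria1 made up 65.6% ± 2.38 in controls and 69.1% ± 5.43 in p300-ifKO mice (SD, n = 3, exact permutation p = 0.4). The difference of 3.49 percentage points was 0.504 without p300-ifKO replicate 1 and 5.80 without replicate 2. Gria2 made up 20.5% ± 2.27 and 18.6% ± 4.75 (exact permutation p = 0.7). Gria4 made up 4.17% ± 0.309 and 3.75% ± 0.288 (exact permutation p = 0.3). The share of Gria3 was 9.94%, 9.47% and 9.73% in the controls and 8.01%, 8.78% and 8.86% in p300-ifKO mice. It was lower in all 3 p300-ifKO libraries, and the difference of -1.16 percentage points gave an exact permutation p of 0.1, the smallest that 3 against 3 allows (Benjamini-Hochberg 0.65 over 13 shares and ratios). All tests were two-sided. The sizes of these shares depend on the exonic lengths, which were 6.04 kb for Gria1 and 15.5 kb for Gria2. Not divided by length, mean normalized counts in the controls were 30491 for Gria1 and 24555 for Gria2. In p300-ifKO mice they were 29118 and 20897.

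**Figure D4:**
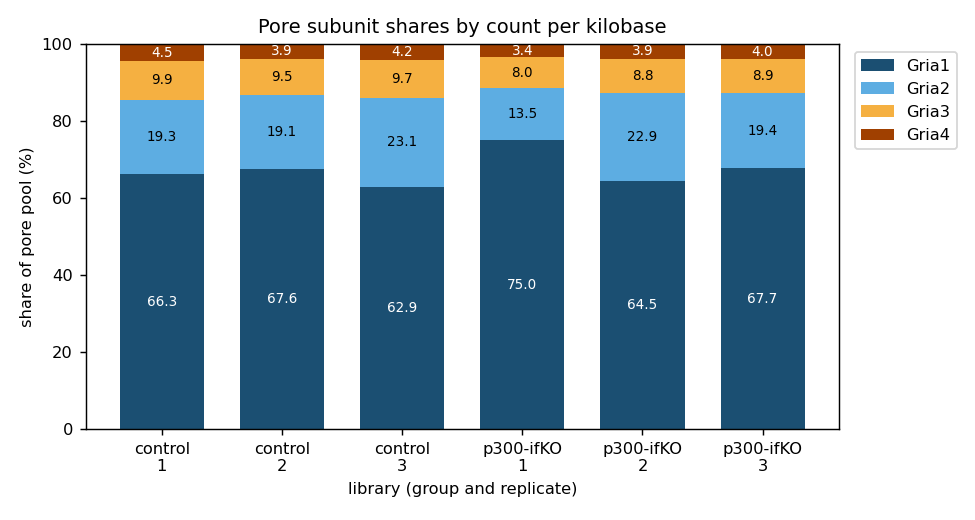
Share of each pore subunit in the summed counts per kb of Gria1 to Gria4 (y axis, %) in each of 6 libraries (x axis). Gria1 was the largest share in each, from 62.9% in control replicate 3 to 75.05% in p300-ifKO replicate 1. The sizes of the shares depend on the exonic lengths.

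Within the summed level per kb of Cacng2, Cacng3 and Cacng8 alone, which leaves out Cacng7 at 1255 counts per kb and the less abundant Cacng4 and Cacng5, Cacng8 made up 50.6% ± 1.44 in controls and 50.2% ± 4.17 in p300-ifKO mice, Cacng3 32.1% ± 1.38 and 33.5% ± 4.51, and Cacng2 17.3% ± 0.17 and 16.3% ± 1.56. Exact permutation p-values were 1, 0.7 and 0.4 (n = 3 per group). The sizes of these shares, too, depend on the exonic lengths. The summed level of the 6 auxiliary genes over that of the pore subunits was 0.23, 0.22 and 0.04 on the log2 scale in the controls and 1.12, -0.01 and 0.40 in p300-ifKO mice. Replicate 1 of p300-ifKO stood highest and replicate 2 below every control (exact permutation p = 0.5, n = 3 per group). Cnih2 was the largest term of that sum, and its own log2 ratio to the pore subunits ran from -0.54 to -0.29 in controls and from -0.60 to 0.79 in p300-ifKO mice. Cacng8 relative to the pore subunits was -3.12, -3.14 and -3.16 in the controls and -2.77, -3.05 and -3.10 in p300-ifKO mice on the log2 scale. All 3 p300-ifKO libraries lay above the controls (exact permutation p = 0.1, Benjamini-Hochberg 0.65, n = 3 per group). The difference of 0.17 was 0.064 without p300-ifKO replicate 1. Length trends between libraries bear on these ratios too, and their part was not tested.

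Other ionotropic glutamate receptors were measured in the same libraries. The summed AMPA pore level per kb was 3.26 times that of the 7 NMDA receptor subunit genes, averaged over the 6 libraries, with a range of 2.95 to 3.41. The log2 ratio was 1.73 ± 0.0359 in controls and 1.68 ± 0.106 in p300-ifKO mice (exact permutation p = 0.6, n = 3 per group). Over the 5 kainate receptor genes the pore level was 3.79 times, with a range of 3.13 to 4.20. The size of both ratios depends on the exonic lengths. Summed normalized counts in the controls, not divided by length, ran from 61474 to 66530 for the pore subunits. They ran from 32583 to 35949 for the NMDA and from 12336 to 12876 for the kainate receptor genes. Of the NMDA receptor genes 0 of 7 were called by DESeq2 and 0 had an unadjusted p under 0.05, with a median log2 fold change of -0.09. Among those with a mean normalized count of at least 10, Grin2c was highest at 0.06 and Grin2b lowest at -0.36. Grin3b lay under that count, at group means of 5.82 and 2.82, with a log2 fold change of -1.02 (SE 0.96). Of the kainate receptor genes 0 of 5 were called, with a median of -0.10. Grik5 was highest at 0.08 and Grik3 lowest at -0.46 (95% interval -0.90 to -0.03, unadjusted p = 0.0352 and adjusted p = 0.991 in DESeq2).

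Further genes of the AMPA receptor pathway were counted by list. Of 16 further auxiliary and complex genes, such as the TARPs Cacng4, Cacng5 and Cacng7 and the Shisa proteins Shisa7 and Shisa8, 0 were called, 9 had positive and 7 negative log2 fold changes, and the median was 0.05. Shisa8 was highest at 0.80 and Prrt2 lowest at -0.63, both with few counts, at group means of 17.03 and 29.8 for Shisa8 and 21.1 and 13.5 for Prrt2. Of 6 biogenesis genes, which act in assembly of the receptor in the endoplasmic reticulum, 0 were called, with a median of 0.11. Abhd12 was highest at 0.21 and Sacm1l lowest at -0.53. Of 8 partners of the cytoplasmic tails 0 were called, with a median of -0.12. Pick1, a PDZ protein that binds GluA2 and GluA3, was highest at 0.22 and Grip1, a scaffold of the same tails, lowest at -0.19. Adarb1, which edits the Q/R codon of Gria2, had a log2 fold change of -0.17 (95% interval -0.48 to 0.13), and Adar had -0.32 (95% interval -0.82 to 0.18), and 0 of these 2 editing enzymes were called. Without p300-ifKO replicate 2, DESeq2 called 2.93% of all genes tested, 493 higher and 445 lower in p300-ifKO mice. In these lists it called 1 of 2 editing enzymes, 1 of 6 biogenesis genes, 1 of 7 NMDA and 2 of 5 kainate receptor genes, all lower. It called 0 of the 16 further auxiliary and complex genes and 0 of the 8 tail partners. At a mean normalized count of at least 10, the called genes lowest of their lists were Adar (log2 fold change -0.62, adjusted p = 0.027), Sacm1l (-1.08, adjusted p = 0.0214), Grin2b (-0.64, adjusted p = 0.0247) and Grik3 (-0.69, adjusted p = 0.0145). Without p300-ifKO replicate 1 the same 4 genes stood at -0.076, -0.15, -0.14 and -0.27. With all 6 libraries, each of the 4 lists of further pathway genes had 0 genes with an unadjusted p under 0.05 in DESeq2.

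Markers of cell types were measured as summed normalized counts. The 6 markers of excitatory neurons, in which the subunits are mainly expressed, ran from 136564 to 158178 in controls and from 135716 to 162762 in p300-ifKO mice. The 3 markers of CA1 pyramidal cells ran from 8330 to 9718 and from 8167 to 8432, the 3 of CA3 pyramidal cells from 1791 to 2279 and from 1815 to 3078, and the 4 of dentate granule cells from 5132 to 6447 and from 5342 to 5470. Interneuron markers (10 genes) ran from 24371 to 27796 and from 23272 to 26350, and those of oligodendrocyte precursors (5 genes), which also express AMPA receptors, from 3447 to 3870 and from 2717 to 3529. Sums for the 7 astrocyte markers did not overlap, at 109541 to 113243 in controls and 97703 to 108096 in p300-ifKO mice. Gene by gene, the median log2 fold change of the astrocyte markers was -0.04, with 5 negative and 2 positive. Microglia markers (10 genes) ran from 10383 to 11396 and from 11350 to 14591. Oligodendrocyte markers (8 genes) ran from 107256 to 146159 and from 116401 to 148799, endothelial markers (6 genes) from 4861 to 5150 and from 4743 to 5165, and choroid plexus markers (6 genes) from 749 to 3777 and from 1390 to 5479. Of the 68 markers 0 were called by DESeq2 and 6 had an unadjusted p under 0.05. Such a p was found for 1.32% of all genes tested, including those with few counts. Of the 6 markers, 3 were microglia markers, and 8 of the 10 microglia markers had positive log2 fold changes, with a median of 0.32. The median was 0.36 for the choroid plexus markers (5 of 6 positive) and 0.19 for the oligodendrocyte markers (6 of 8 positive). The part of cell composition in the values above was not tested.

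The genes most like each pore subunit were found by the root mean square difference of log2 normalized counts, each gene centred on its mean over the 6 libraries, among 12252 genes. For Gria1 they were Nckap1, Cap2 and Bri3bp, at 0.02 each. For Gria2 they were Secisbp2l at 0.031, Tmf1 at 0.033 and Dido1 at 0.043, where the median gene stood at 0.411. Sorbs2, Dsel and Gabrg1 were nearest to Gria3, at 0.017 to 0.029, and Cadm1, Fgf14 and Rab9b to Gria4, at 0.02 to 0.021. Within the family, Gria3 and Gria4 were the most alike pair, at 0.049, and Gria2 and Cnih2 the least alike, at 0.716. These distances describe 6 libraries and include their length trends.

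Annotated promoter windows were given for 6 of the 10 genes (RefSeq, GRCm38.p6). Those of Cacng2 (chr15:78119231-78119530), Cacng3 (chr7:122671494-122671793) and Cacng8 (chr7:3393792-3394091) lay inside the gene spans given above, downstream of the gene start. The counts below describe these windows and may miss the promoters at those gene starts. On either strand, the cyclic AMP response element TGACGTCA was found in 0 of 6 and in 1.79% of 32851 promoters, its half-site TGACG in 0 of 6 and in 20.8%, and the letters CANNTG in 5 of 6 and in 72.3%.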

How the data were processed

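Single-end 50-base reads (Illumina) were trimmed by the authors with Trim Galore 0.6.4, checked with FastQC 0.11.8 and aligned to GRCm38 with STAR 2.6.1. Reads with a mapping quality over 10 were counted on exons (Rsubread, Ensembl GRCm38.99). The deposited values are raw counts per gene, with exonic lengths. Separate mice served as replicates. p300-ifKO was tested against control with the DESeq2 1.42.0 Wald test in R 4.3.3 on all genes, two-sided, with Benjamini-Hochberg adjustment, a threshold of 0.05 and independent filtering optimised at 0.05. An alternative that optimised it at 0.1, the tool's default, was added after seeing the data, as were the ratios to kainate receptors, of Gria1 to Gria2, and of Cacng8 and of Cnih2 to the pore subunits. Other fits used edgeR 4.0.16, limma 3.58.1, sva 3.50.0 and mgcv 1.9.3 (offsets). Scripts were tested on simulated data. Shares and ratios used counts per kb and exact permutation tests. Of all genes, 99.57% matched GENCODE M21. The members and lists were chosen with earlier results of these data known. Genes named outside the 10 and the label checks Ep300, Esr1 and Arsi were those called, and the highest and lowest fold change of each list (mean normalized count of at least 10), and the 3 nearest genes to each pore subunit (mean of at least 100, log2 with a pseudocount of 1). Genes named as examples of a list were chosen after their values were seen. Precision is limited by 3 mice per group.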

Additional observations from a re-analysis of the deposited data

How the results depend on the processing

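No AMPA receptor gene was called under the other tests, scalings and filters, the offsets or the surrogate variable. Leaving out 1 library gave 0 to 2 of the 10 genes called and 2 to 938 genes in all, the upper values without p300-ifKO replicate 2, where filtering at 0.1 gave 926 genes and the same 2, Gria2 and Gria3. In that fit Gria2 lay near the threshold, at a DESeq2 adjusted p of 0.048, or 0.0497 at 0.1. Neither Gria2 nor Gria3 was called in any fit that kept p300-ifKO replicate 2, so both calls depend on leaving it out. Deviations from the group means correlated by 0.269, -0.279 and 0.134 between same-numbered libraries, so the numbers were not taken to pair the mice. The replicate block gave 4 genes in all and 0 of the 10. For shares and ratios the block cannot change the difference of the group means, only its p-value. The exact permutation p of the Gria3 share was 0.25 with the block, the smallest that 3 pairs allow.

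Some directions turned among values not called with all 6 libraries, and the cause was not tested. With length and GC offsets, the log2 fold change was 0.015 for Gria1, 0.038 for Gria2 and -0.14 for Cacng8. With 1 surrogate variable, it was 0.12 for Gria2, -0.078 for Cacng3, -0.059 for Cnih2, 0.010 for Shisa6, -0.049 for Abhd12, -0.12 for Pick1 and 0.091 for Grip1. Leaving out 1 library gave -0.56 to 0.028 for Gria2, -0.040 to 0.19 for Cacng3, -0.054 to 0.11 for Cacng8, -0.026 to 0.39 for Pick1 and -0.50 to 0.051 for Grip1. For differences in share, it gave -4.05 to 0.643 points for Gria2, -0.806 to 3.70 for Cacng3 and -2.79 to 1.09 for Cacng8, which was 0.0317 with counts not divided by length. The log2 ratio of AMPA to NMDA receptors differed by -0.091 to 0.010 and that of Gria1 to Gria2 by -0.034 to 0.46. The lower share of Gria3 and the higher ratio of Cacng8 to the pore subunits kept their direction under the 9 alternatives run for them. These changed the length used, blocked by replicate or left out 1 library. The length and GC offsets and the surrogate variable were not applied to shares or ratios. Without p300-ifKO replicate 1 the difference for Cacng8 fell to 0.064. Without that library, differences in log2 ratio to the pore subunits were 0.037 for the auxiliary genes and 0.044 for Cnih2.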
